A study of Mus musculus with 8 samples.

Results

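A set of 8 noncoding RNAs was followed in right ventricles of the POLG mutant mouse: the nuclear long noncoding RNAs Malat1 and Neat1, the small nuclear RNA 7SK (Rn7sk), both gene copies of the 7SL RNA (Rn7s1 and Rn7s2), the RNA subunit of RNase MRP (Rmrp), and a pair of annotations on the cytosolic ribosomal RNA sequence of chromosome 17 (AY036118 and CT010467.1). They were picked out by gene name from the 55421 genes of the FPKM table, with their FPKM in these same libraries already known, so their levels and their genotype differences are a description and carry no test. All 8 names were found, in 9 entries of the table, since Rmrp has a second entry that was listed at 0 in all 8 libraries. RNA came from 4 homozygous POLG D257A mutants, whose mitochondrial DNA polymerase lacks proofreading, and 4 wild type (WT) mice from the same heterozygous breeding. All were females of 9 to 10 months, and each mouse gave 1 library. The mutation is in the germline and so is not limited to the heart. The libraries are POLG E, F, G and H and WT A, B, C and D, and values below follow that order. FPKM counts sequenced fragments per kilobase of transcript and scales them to the depth of the library.

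Malat1 is retained in nuclear speckles, the compartments that store splicing factors, and Neat1 is the scaffold on which paraspeckles are built. 7SK is made by RNA polymerase III and holds the elongation factor P-TEFb inactive together with the protein HEXIM1. 7SL, also a polymerase III product, is the backbone of the signal recognition particle that brings secreted proteins to the endoplasmic reticulum, and the RNase MRP RNA forms the enzyme that cuts the precursor of ribosomal RNA. 7SK, 7SL, RNase MRP RNA and ribosomal RNA carry no long poly(A) tail, whereas these libraries were made from poly(A) RNA. How much of each RNA the selection carried over was not measured, so a level here is that of the RNA that reached the library.

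The sequences below are shown because they bear on what could be counted for these RNAs, though their effect on the levels was not tested. They come from the GENCODE M21 transcripts of the mouse genome GRCm38, which is the mm10 build used by the authors. Rn7s1 and Rn7s2 had identical transcripts, so fragments of these genes cannot be told apart.
The RNase MRP RNA is transcribed from chr4:43492788-43493058 on the minus strand, and capitals mark its first 159 bases, which lie under the protein-coding gene Ccdc107 on the opposite strand.
Rmrp: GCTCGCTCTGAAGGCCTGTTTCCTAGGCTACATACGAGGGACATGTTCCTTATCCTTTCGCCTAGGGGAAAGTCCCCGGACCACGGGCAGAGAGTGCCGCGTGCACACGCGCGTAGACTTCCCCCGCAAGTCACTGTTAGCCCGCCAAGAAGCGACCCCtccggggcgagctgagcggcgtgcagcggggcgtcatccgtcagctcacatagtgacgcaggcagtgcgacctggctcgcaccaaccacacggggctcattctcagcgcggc
The next stretch lies close to the 3′ end of Malat1, at chr19:5795928-5796059 on the minus strand, and capitals mark a run of 12 A at bases 6674 to 6685 of the 6983-base transcript. As background, the end of mature Malat1 is not made by polyadenylation, and an A-rich stretch encoded in the genome protects it. A run of at least 12 A was present in 4.07% of the 141767 transcripts searched on their own strand, and the longest run of A in the first transcript of each other RNA followed here was between 3 and 7 bases.
Malat1: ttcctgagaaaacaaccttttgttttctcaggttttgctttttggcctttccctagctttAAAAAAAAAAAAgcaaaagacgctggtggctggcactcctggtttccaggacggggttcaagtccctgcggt
The last stretch is part of CT010467.1, at chr17:39846930-39847028 on the minus strand, with capitals marking bases 1214 to 1232 of the 1849-base transcript. These are the reverse complement of a universal forward primer site of small-subunit ribosomal RNA. Both strands of all 141767 transcripts were searched for that site, which 0.00141% of them held, 1 transcript on its own strand, from Gm42418, and 1 on the other strand, from CT010467.1.
CT010467.1: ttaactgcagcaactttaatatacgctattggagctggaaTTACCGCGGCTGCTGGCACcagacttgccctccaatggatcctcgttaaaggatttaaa

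The locus on chromosome 17 therefore holds the 18S sequence on the strand of Gm42418 (chr17:39846958-39848788, plus strand), and both members are annotated on the opposite strand. AY036118 (chr17:39847113-39848035) is a 923-base transcript annotated as a lincRNA, and its whole sequence is contained in CT010467.1 at bases 167 to 1089. CT010467.1 (chr17:39846353-39848827) is annotated as rRNA. The kit marks strand, but whether strand was used in counting is not given in the sources used here, so reads from the members and from Gm42418 cannot be told apart with certainty, and how reads were split between AY036118 and CT010467.1 is likewise uncertain. The other members are Malat1 (chr19:5795690-5802672) and Neat1 (chr19:5824708-5845478), neighbours on the minus strand with 22035 bases between them, and Rn7sk (chr9:78175303-78175633, minus strand), a single exon of 331 bases.

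The libraries differed in depth and in marker genes, in part across and in part along genotype, and these values stand beside the results that follow. A rough depth, read from the steps between the smallest values of each library, was between 15.2 and 21.9 M fragments in POLG and between 13.5 and 22.7 M in WT, with POLG H, WT C and WT D the 3 shallowest libraries. Of 6 atrial markers, 5 were highest in WT C and WT D. Their summed level ranged from 69.5 to 202 FPKM in POLG and from 39.3 to 649 FPKM in WT, and Sln, which marks atrial muscle, was listed at 0 in the 6 libraries other than WT C and WT D. All 3 smooth muscle genes were also highest in WT C and WT D. For Acta2 and Myh11, every WT library lay above every POLG library as well. The 3 mesothelium markers summed to 0.83 to 1.28 FPKM in POLG and to 1.44, 2.44, 7.29 and 6.17 FPKM in WT. Msln and Upk3b were highest in WT C and WT D, but Wt1 went the other way, with means of 0.74 FPKM in POLG and 0.45 FPKM in WT. Upk3b had no overlap between genotypes, as in 15.8% of all genes tested (log2 difference -1.38, limma adjusted p = 0.067). It reached the mean of 1 FPKM needed for the test only through the WT libraries, its POLG mean being 0.19 FPKM. The part of these markers in the members' levels was not tested. All 10 immediate early genes, which answer quickly to stimulation, were lowest in WT C and WT D, with a summed level of 458 to 753 FPKM in POLG and 69.7 to 965 FPKM in WT. Ventricular markers were high throughout, with sums of 9208 to 11654 FPKM in POLG and 12338 to 14652 FPKM in WT, without overlap. In the limma fit used for the genotype contrast, 3 of 4 red cell genes passed higher in POLG, beside 0.694% of all genes tested. None of the 4 overlapped between genotypes, as in 15.8% of all genes tested. Of the ventricular genes 2 of 7 passed lower, and of the smooth muscle genes 1 of 3, beside 2.12% of all genes tested. Genes of chromosome M held 46.1% to 47.8% of the summed FPKM in POLG and 45.8% to 47.9% in WT. Of such measures, 5 were compared between genotypes with a two-sided exact permutation test over the 70 ways to assign the libraries (depth, genes at or above 1 FPKM, chromosome M share, and the atrial and immediate early sums). The number of genes at or above 1 FPKM was 9987 ± 293 in POLG and 10324 ± 194 in WT (SD, n = 4 each; exact permutation p = 0.0286, the smallest possible, Benjamini-Hochberg adjusted p = 0.143), and the other 4 had adjusted p between 0.571 and 0.6.

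Malat1 was far higher in WT C and WT D than in the other 6 libraries. It had 45.9, 54.8, 49.0 and 71.4 FPKM in the POLG libraries, against 53.1, 38.7, 237 and 211 FPKM in the WT libraries. WT A and WT B lay within or below the range of the mutants, so the groups overlapped. The mean was 55.3 ± 11.4 FPKM in POLG and 135 ± 104 FPKM in WT (SD, n = 4 each), a difference of -0.88 (SE 0.56) on the log2(FPKM + 1) scale. Without WT C and WT D it was 0.26 (SE 0.20), with the opposite sign. The pair was singled out on these same values. Leaving out the highest Malat1 libraries had to raise the difference, so nothing is read from the change of sign.

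Neat1, a gene with 4 annotated transcripts that were not told apart here, had 8.42, 7.62, 8.72 and 7.28 FPKM in the POLG libraries. It had 8.14, 5.74, 44.5 and 21.6 FPKM in the WT libraries. The mutants were tightly grouped, and the same WT C and WT D stood above all others. The difference was -0.82 (SE 0.52) with all libraries and 0.20 (SE 0.15) without WT C and WT D. Without WT C alone it was -0.31, and without WT D alone it was -0.65. Gm27505, a 110-base annotation inside Neat1 on the same strand, was also highest in WT C and WT D and lowest in WT B, with 90.7, 78.6, 79.3 and 73.9 FPKM in the POLG libraries and 72.0, 60.0, 440 and 215 FPKM in the WT libraries.

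**Figure D1:**
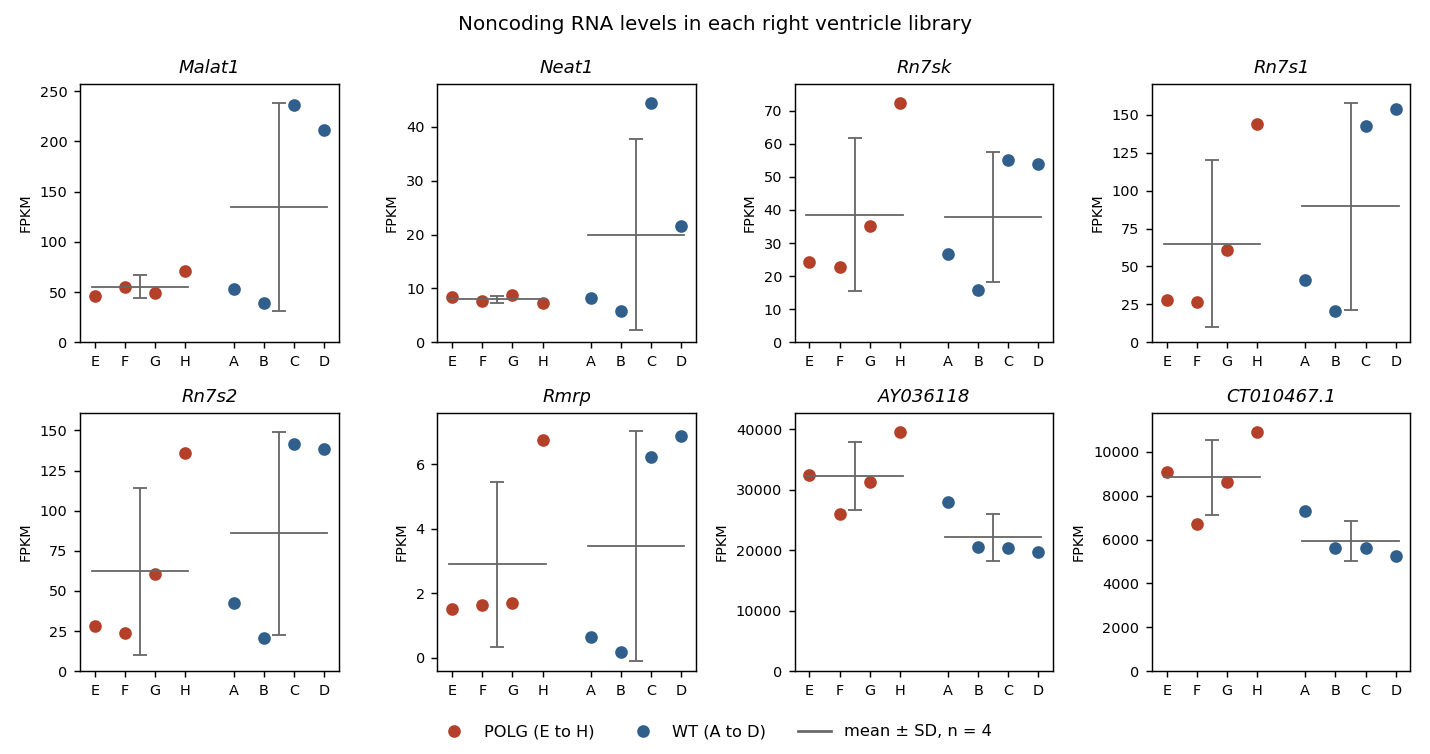
Level in FPKM (vertical axes, linear) of each noncoding RNA in the 4 POLG libraries E to H (left, red) and the 4 WT libraries A to D (right, blue), with the mean and SD of each group (grey). Malat1 and Neat1 stand out in WT C and WT D, the RNAs from Rn7sk to Rmrp also in POLG H, and AY036118 and CT010467.1 are lowest in WT B, C and D.

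The polymerase III transcripts had another pattern, in which POLG H joined WT C and WT D. Rn7sk had 24.2, 22.6, 35.2 and 72.4 FPKM in the POLG libraries, against 26.6, 15.8, 55.2 and 53.9 FPKM in the WT libraries. The highest library of all was thus a mutant and the lowest, WT B, a wild type. The means were 38.6 ± 23.2 FPKM in POLG and 37.9 ± 19.7 FPKM in WT (SD, n = 4 each), a log2 difference of 0.04 (SE 0.47). Its sign depended on single libraries: without POLG H it was -0.31, without WT B -0.31 and without WT A -0.07.

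Rn7s1 had 28.1, 26.7, 60.9 and 144 FPKM in the POLG libraries, against 41.3, 20.9, 143 and 154 FPKM in the WT libraries. Rn7s2 had 28.0, 24.0, 60.4 and 136 FPKM in the POLG libraries, against 42.5, 20.7, 142 and 139 FPKM in the WT libraries. As their sequences are identical, these are not separate measurements, and the ratio of Rn7s1 to Rn7s2 stayed between 0.97 and 1.11 in the 8 libraries. POLG H, WT C and WT D were high, POLG G was intermediate, and POLG E, POLG F and WT B were low. The sum of both copies differed by -0.39 on the log2 scale, and each copy by -0.38 (SE 0.74) and -0.41 (SE 0.72). Without WT C and WT D the differences were 0.77 and 0.70 with the sign turned, and without WT D alone that of Rn7s1 was 0.02. The related Rn7s6 was at or under 0.0715 FPKM in every library.

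Rmrp was the scarcest member and varied most, by a factor of 42.3 between its highest and lowest library. It had 1.50, 1.64, 1.69 and 6.75 FPKM in the POLG libraries, against 0.63, 0.16, 6.23 and 6.87 FPKM in the WT libraries. POLG H, WT C and WT D again stood apart from the other 5 libraries. At the rough depth these levels correspond to about 28 fragments in POLG H and about 30 in WT D, but to about 1 in WT B, so the low values carry a large counting error. The log2 difference was 0.09 (SE 0.68). It was 1.31 (SE 0.47) without WT C and WT D and -0.31 without POLG H. It also changed with the scale, to 0.50 with a pseudocount of 0.1, -0.05 with a pseudocount of 5 and -0.26 as the log2 ratio of mean FPKM. Ccdc107, on the other strand over the first 159 bases, had 4.48 to 5.99 FPKM in POLG and 4.31 to 8.12 FPKM in WT. It was lowest in WT C and highest in WT D. Whether strand was used in counting is not known, so reads of Rmrp and Ccdc107 cannot be told apart with certainty where they overlap.

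AY036118 and CT010467.1 were the most abundant members by far. AY036118 had 32463, 26024, 31285 and 39635 FPKM in the POLG libraries, against 28020, 20614, 20337 and 19715 FPKM in the WT libraries. CT010467.1 had 9065, 6728, 8605 and 10915 FPKM in the POLG libraries, against 7298, 5597, 5610 and 5242 FPKM in the WT libraries. POLG H was highest and WT D lowest for both, and 3 mutants lay above all wild types. The groups overlapped only through POLG F, which was below WT A. The means of AY036118 were 32351 ± 5604 FPKM in POLG and 22172 ± 3917 FPKM in WT, and those of CT010467.1 were 8829 ± 1720 FPKM in POLG and 5937 ± 923 FPKM in WT (SD, n = 4 each).

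The log2 difference was 0.54 (SE 0.15) for AY036118 and 0.56 (SE 0.15) for CT010467.1, a ratio of means of 1.46 and 1.49. Without WT C, WT D and POLG H it was 0.31 (SE 0.16) and 0.34 (SE 0.17). Quantile normalization, which forces the libraries to one distribution, left 0.44 for AY036118 and 0.02 for CT010467.1. Together they held 5.27% to 7.43% of the summed FPKM in POLG and 4.07% to 5.65% in WT. The ratio of AY036118 to CT010467.1 stayed between 3.58 and 3.87 in all libraries.

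Gm42418, on the strand that carries the 18S sequence, was much lower, with POLG H highest. It had 104, 42.0, 69.9 and 248 FPKM in the POLG libraries, against 58.0, 41.0, 39.6 and 91.7 FPKM in the WT libraries. AY036118, whose sequence it contains in reverse complement, was 160 to 620 times as high as Gm42418. Of the 5 other genes measured on the list of ribosomal RNA loci, none passed the limma test fitted across all genes (Benjamini-Hochberg adjusted p, threshold 0.05), and 2 had an unadjusted p under 0.05, as did 22.2% of all genes tested. The mitochondrial 12S and 16S ribosomal RNAs had log2 differences of 0.88 (adjusted p = 0.069, mt-Rnr1) and 0.92 (adjusted p = 0.116, mt-Rnr2). Lars2, also on this list, went the other way, with -0.42 (adjusted p = 0.252). The groups did not overlap for these 3 genes, as for 15.8% of all genes tested. Gm42418 had 0.77 (adjusted p = 0.392) and Gm26917 had 0.37 (adjusted p = 0.332).

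Seen as profiles, the 8 RNAs were grouped by eye into 3 patterns across libraries. Likeness was measured as the root mean square difference between the profiles of log2(FPKM + 1), each centred on its own mean over the 8 libraries, so a smaller value is a closer match. It was 0.04 between AY036118 and CT010467.1 and 0.07 between Rn7s1 and Rn7s2, the pairs that share sequence. Malat1 and Neat1 differed by 0.33. Rn7sk, Rn7s1 and Rmrp differed from each other by 0.42 to 0.46, although they lie on 3 chromosomes. Between patterns the values ran from 0.59 (Malat1 and Rmrp) to 1.17 (Rn7s1 and AY036118), and Rn7sk was 0.72 from AY036118 and 0.71 from CT010467.1, so the patterns are not sharply separated. These values rest on 8 libraries that differed in depth, and carry no test.

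POLG H, WT C and WT D were the 3 highest libraries for 5 members (Malat1, Rn7sk, Rn7s1, Rn7s2 and Rmrp), against 2.03% of the 10236 genes tested. WT C and WT D were the highest pair for Malat1, Neat1 and Rn7s2, beside 15.3% of all genes tested. These libraries were singled out on the members' own values, and Rn7s1 and Rn7s2 are not separate measurements. Nothing is therefore read from either count. WT B was the lowest library for the 6 members other than AY036118 and CT010467.1. The 3 libraries with high 7SK, 7SL and RNase MRP RNA were the 3 shallowest, and whether depth, RNA quality or handling moved these RNAs was not tested. The RNA part of RNase P, Rpph1, a further polymerase III product from the list of small structured RNAs, had 0.53, 0.96, 3.26 and 6.42 FPKM in the POLG libraries, and 2.36, 0, 6.23 and 8.46 FPKM in the WT libraries. It too was highest in WT D, POLG H and WT C.

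**Figure D2:**
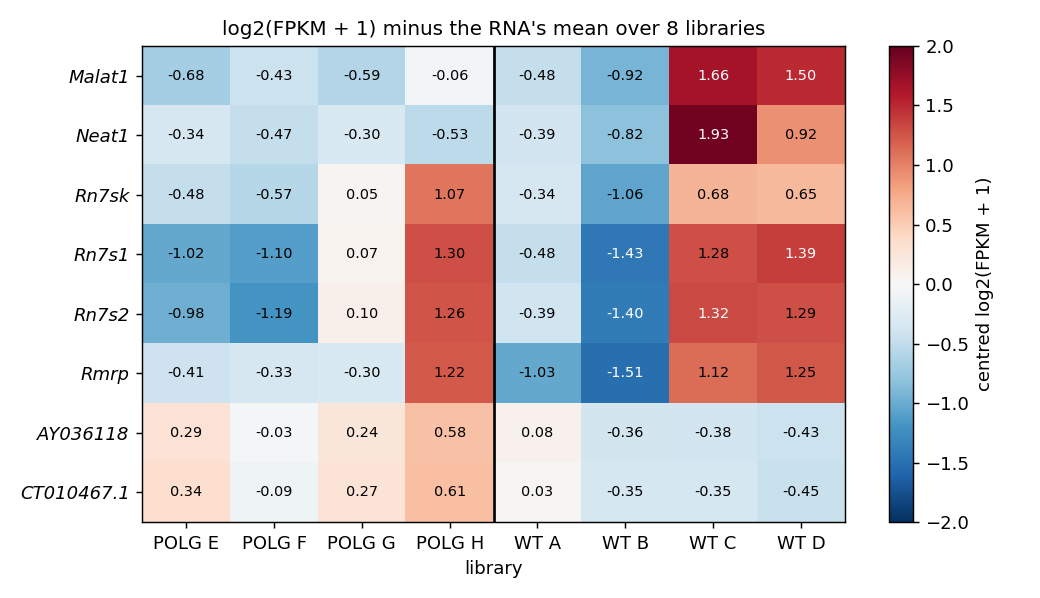
Centred log2(FPKM + 1) of each RNA (rows) in each library (columns, POLG left of the line and WT right of it), coloured from blue (below the RNA's own mean) to red (above it). Malat1 reaches 1.66 and 1.50 in WT C and WT D, while Rn7sk, Rn7s1, Rn7s2 and Rmrp are above 0.6 in these and at 1.07 to 1.30 in POLG H.

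The genes with the most similar profiles were in part other members or annotations at the same locus. For Malat1 they were Gm10435 (0.31), Neat1 (0.33) and Gm27505 (0.33), and for Neat1 they were Gm27505 (0.10), Gm10435 (0.27) and Malat1 (0.33). Gm10435, an antisense noncoding annotation, had 2.23, 2.25, 2.50 and 2.75 FPKM in the POLG libraries, and 4.37, 2.20, 21.1 and 11.5 FPKM in the WT libraries. For Rn7sk they were Ablim1 (0.27), which encodes an actin-binding LIM protein, Gm15501 (0.36) and the sulfotransferase gene Sult1a1 (0.37). After the other 7SL copy, Rn7sk was nearest to Rn7s1 and to Rn7s2 (0.46 and 0.45), followed by Lgals4 (0.57), which encodes galectin-4, and Ablim1 (0.58). For Rmrp they were Lgals4 (0.39), Rn7sk (0.42) and Rn7s1 (0.43). After each other, AY036118 and CT010467.1 were nearest to Gm5532 (0.16 and 0.17), with Optn (0.17), encoding the autophagy receptor optineurin, next for AY036118 and Ephx2 (0.19), encoding soluble epoxide hydrolase, next for CT010467.1.

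**Figure D3:**
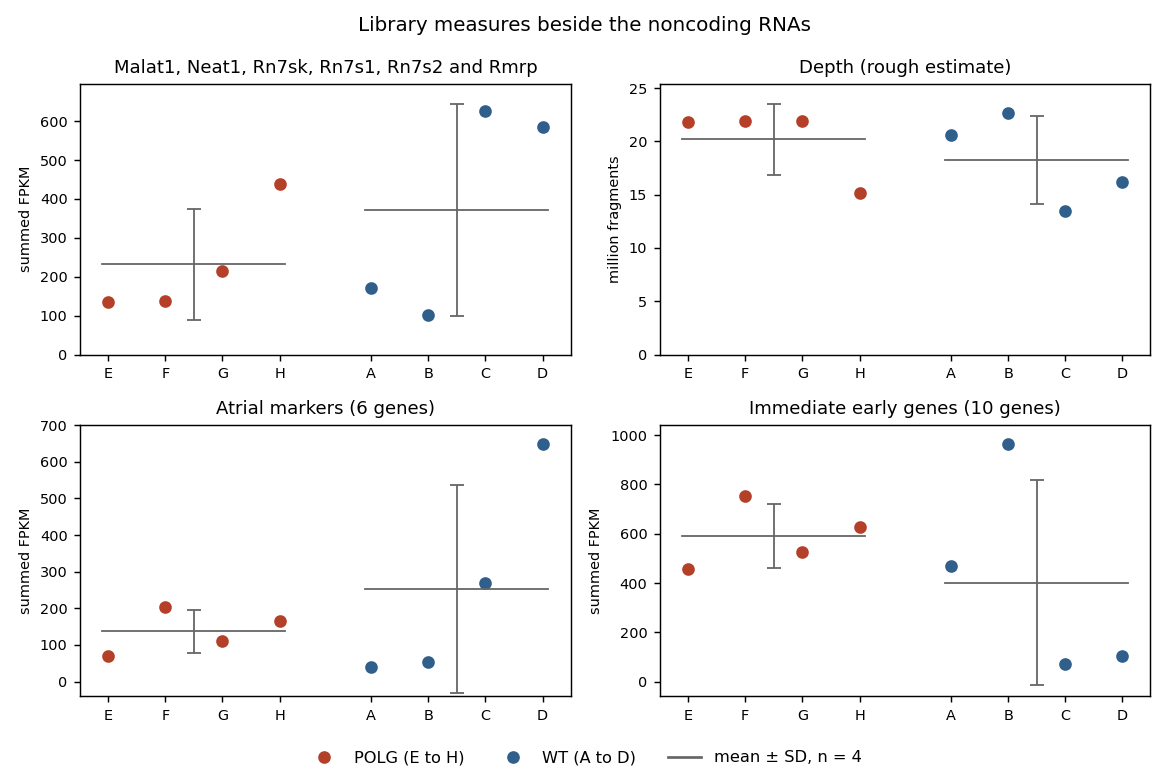
Library measures in the POLG libraries E to H (left, red) and the WT libraries A to D (right, blue), with group mean and SD (grey): the summed FPKM of the 6 members outside the ribosomal RNA locus, the rough depth in fragments, and the summed FPKM of 6 atrial markers and of 10 immediate early genes. The summed members reach 627, 586 and 438 FPKM in WT C, WT D and POLG H, the 3 shallowest libraries, and WT C and WT D have the lowest immediate early sums.

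Against the genotype contrast over all genes, 0 of the 8 members passed the limma test, 2 of the 8 were at an unadjusted p under 0.05, and none had groups that did not overlap. Over the 10236 genes tested, 2.81% passed, 0.694% higher and 2.12% lower in POLG, 22.2% were at an unadjusted p under 0.05 and 15.8% had groups that did not overlap. Nothing is read from the members' counts, since the members were chosen with these values known. Scaling by median ratios changed the split of the calls over all genes, to 131 higher and 120 lower, against 71 higher and 217 lower as deposited. The members' log2 differences ranged from -0.88 to 0.56, with a median of -0.17, beside a median of -0.09 over all genes tested. In whole tissue, fewer cells of a type and less RNA per cell cannot be told apart.

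**Figure D4:**
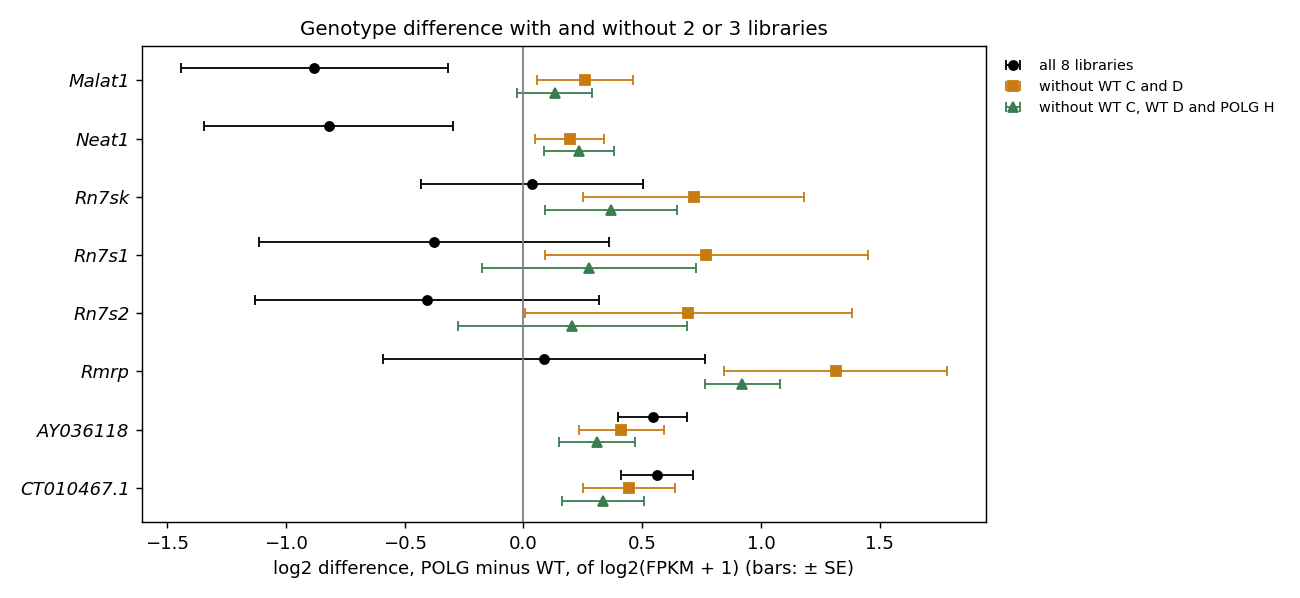
Log2 difference (POLG minus WT, horizontal axis, bars ± SE) of each RNA with all 8 libraries (black circles), without WT C and WT D (orange squares) and also without POLG H (green triangles). Malat1 and Neat1 lie at -0.88 and -0.82 with all libraries and above 0 without WT C and WT D, while AY036118 and CT010467.1 stay above 0 in all 3.

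The proteins and RNAs that work with these molecules were read from 12 lists, which held 121 genes other than members that were tested. Of these, 1 passed higher and 4 passed lower in POLG, beside 0.694% and 2.12% of all genes, and 31 were at an unadjusted p under 0.05, beside 22.2% of all genes. The 5 are Hexim1, Rbm12, Mhrt, Polr1a and Hist1h1c. Each lost its call with no filter on low values and when WT C and WT D were left out, with the direction kept. Without these libraries, which also leaves fewer samples, the log2 difference was -0.42 for Rbm12 (-0.45 with all libraries), -0.31 for Polr1a (-0.37) and 0.66 for Hist1h1c (0.77).

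Among 6 genes for the partners of 7SK, Hexim1 fell. It encodes the inhibitor that holds P-TEFb on 7SK, and it had 4.46, 4.30, 4.04 and 3.32 FPKM in the POLG libraries, against 6.41, 6.47, 6.96 and 8.56 FPKM in the WT libraries. All mutants lay below all wild types, with a log2 difference of -0.69 (SE 0.11, limma adjusted p = 0.025). The call held without WT B (adjusted p = 0.035) but not without any other single library, with adjusted p up to 0.070, and it was lost without WT C and WT D (-0.57, adjusted p = 0.131). The other 5 did not pass. Larp7, which binds the end of 7SK, had -0.20 (adjusted p = 0.351), Mepce, which caps it, -0.24 (adjusted p = 0.240), and Ccnt2, a cyclin of P-TEFb, -0.17 (adjusted p = 0.515).

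None of the 10 genes tested for proteins of the signal recognition particle and its receptor passed (4 at an unadjusted p under 0.05), the smallest adjusted p being 0.149 for the receptor subunit Srprb (-0.34). None of 9 for proteins of RNase MRP and RNase P passed either (4 at an unadjusted p under 0.05), the nearest being Pop5 (-0.37, adjusted p = 0.061). The same held for 22 genes of RNA polymerase III (4 at an unadjusted p under 0.05), where the repressor Maf1 had -0.39 (adjusted p = 0.056). Of 12 genes for RNA polymerase I, which transcribes the ribosomal RNA precursor, Polr1a, its largest subunit, fell. It had 2.80, 2.82, 2.82 and 2.58 FPKM in the POLG libraries, against 3.72, 3.58, 4.09 and 3.99 FPKM in the WT libraries, a log2 difference of -0.37 (SE 0.07, limma adjusted p = 0.039). It lost its call without any single library, WT and POLG alike (adjusted p 0.056 to 0.113), and under median ratio and quantile scaling.

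Of 14 genes for paraspeckle proteins, Rbm12, which encodes an RNA-binding protein, fell. It had 0.99, 1.01, 0.96 and 0.89 FPKM in the POLG libraries, against 1.54, 1.72, 1.92 and 1.60 FPKM in the WT libraries, a log2 difference of -0.45 (SE 0.08, limma adjusted p = 0.031). With a POLG mean of 0.96 FPKM it reached the minimum mean of 1 FPKM only through the WT libraries, where it is higher, and with no filter its adjusted p was 0.075. Its adjusted p was 0.053 to 0.088 without each single library. The core paraspeckle proteins, named here for their role after their values had been seen, did not pass, with log2 differences of 0.02 for Sfpq, -0.13 for Nono and 0.01 for Pspc1 (adjusted p = 0.954, 0.415 and 0.978).

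None of the 13 genes for proteins of speckles, the compartment of Malat1, passed (3 at an unadjusted p under 0.05). In 10 of the 13, WT C and WT D were the highest pair of libraries, as for Malat1, against 15.3% of all genes. The pair was singled out on the members' own values, so nothing is read from this count. Outside speckles the pair was highest for 44.4% of the other nuclear long noncoding RNAs and 40% of small nucleolar RNA hosts. It was highest for 28.6% of paraspeckle protein genes and 25% of polymerase I genes. It was also highest for 5 of 6 atrial markers and all 3 smooth muscle genes, but for 0 of 10 signal recognition particle genes and 9.09% of polymerase III genes. Srsf1, a splicing factor, had 2.02, 3.14, 3.17 and 2.73 FPKM in the POLG libraries, against 3.18, 4.23, 8.0 and 8.32 FPKM in the WT libraries (log2 difference -0.81, SE 0.26, limma adjusted p = 0.127). Srrm1, a splicing coactivator, had 4.07 to 4.49 FPKM in POLG and 4.23 to 7.67 FPKM in WT (-0.38, adjusted p = 0.229). The part of the atrial RNA in WT C and WT D in this pattern was not tested.

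Among 9 other nuclear long noncoding RNAs, Mhrt, an RNA of heart muscle nuclei, fell. It had 17.2, 19.6, 22.3 and 17.5 FPKM in the POLG libraries, against 36.7, 37.0, 78.0 and 72.1 FPKM in the WT libraries. WT C and WT D were again highest, but WT A and WT B also lay above every mutant, unlike for Malat1. The log2 difference was -1.42 (SE 0.26, limma adjusted p = 0.034), and without WT C and WT D it was -0.92 (SE 0.12, adjusted p = 0.051). The call held without WT A or WT B and was lost without any one of the other 6 libraries. Mhrt is transcribed antisense to Myh7, so without knowledge of strand in counting its reads cannot be told apart from those of Myh7. Firre, a nuclear RNA of the X chromosome, had 0.99, 1.0, 1.02 and 0.97 FPKM in the POLG libraries, against 1.18, 1.08, 4.14 and 3.51 FPKM in the WT libraries (-0.68, adjusted p = 0.214). With a POLG mean of 0.997 FPKM, Firre reached the minimum mean of 1 FPKM only through the WT libraries, where it is higher.

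None of 10 genes that host small nucleolar RNAs passed (0 at an unadjusted p under 0.05). The smallest adjusted p was 0.285 for Snhg20, which reached the minimum mean only through the WT libraries (POLG mean 0.58 FPKM). None of 3 small structured RNAs, Rpph1, Scarna17 and Scarna2, passed either (0 at an unadjusted p under 0.05, adjusted p = 0.841, 0.293 and 0.810). Of 8 replication-dependent histone genes, which as a class end without a poly(A) tail, the linker histone gene Hist1h1c rose. It had 69.0, 85.1, 67.4 and 99.6 FPKM in the POLG libraries, against 44.0, 56.5, 43.6 and 41.1 FPKM in the WT libraries, with POLG H highest and no overlap (log2 difference 0.77, SE 0.15, limma adjusted p = 0.038). The call held without WT B (adjusted p = 0.029) and was lost without any other single library.

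**Figure D5:**
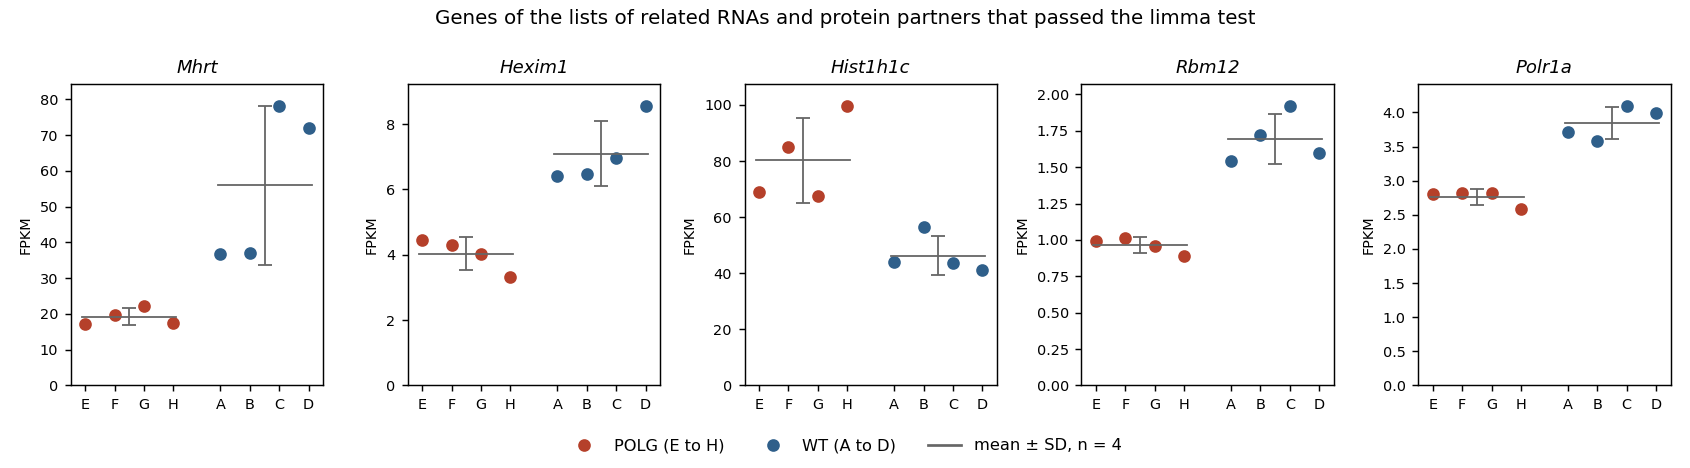
Level in FPKM (vertical axes from 0) of the 5 list genes that passed the limma test, in the POLG libraries E to H (left, red) and the WT libraries A to D (right, blue), with group mean and SD (grey). All 4 POLG libraries lie below all 4 WT libraries for Mhrt, Hexim1, Rbm12 and Polr1a, and above them for Hist1h1c.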

How the data were processed

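Right ventricles of 4 POLG and 4 WT mice were measured by RNA-seq, 1 library per mouse. The p-values thus rest on the spread between mice, which cannot be told apart from that between their libraries. Per the study's methods and the submitters' notes, the authors made stranded poly(A) libraries, mapped paired reads to mm10 with HISAT2 and derived FPKM per gene with StringTie; cutadapt and FastQC are also named, and no versions are stated. The deposited table gives FPKM with 0.0001 standing for 0, which was set back to 0. It also holds the ratio of mean FPKM and its log2, computed by the authors as their own comparison and not used.

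The FPKM were taken as log2(FPKM + 1) and fitted with limma 3.58.1 in R 4.3.3 (prior variance following the mean level). Genes had to average 1 FPKM or more, and one was called below a Benjamini-Hochberg adjusted p of 0.05. Steps were tested on simulated data. Python 3.11.15 (numpy 2.4.6, pandas 2.3.3) gave profiles and counts, and matplotlib 3.10.9 the figures. Positions and sequences are from GENCODE M21, which 54673 of the 55421 gene IDs match. The 7SL sequence is not reported here. Depth was inferred, not given: only 25.1% to 31.7% of low values were within 0.02 of a whole fragment, so it is rough and no count test was run. Members and gene lists were chosen with earlier results of these data known. Named genes are the members, the 3 nearest profiles of each (mean of at least 5 FPKM), overlapping genes, and list genes that passed or had the smallest adjusted p (up to 4 a list). Alternatives were other pseudocounts, filters, scalings and variance priors, and leaving libraries out.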

Additional observations from a re-analysis of the deposited data

Results flagged for a closer look

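In groups of 4, a library was singled out by its gap to the nearest other library, taken as a part of the group's range. This part had to exceed Dixon's critical value, which chance does in about 1 in 20 groups. Of the 48 groups examined, 9 had such a library. The groups share libraries and in part values, as with AY036118 and the sums that include it, so nothing is read from that number. Among the POLG libraries, POLG H stood apart with 6.75 FPKM of Rmrp, a rough depth of 15.2 M fragments, 9548 genes at or above 1 FPKM and 2.58 FPKM of Polr1a. Among the WT libraries, WT A stood apart with 28020 FPKM of AY036118, with 5.68% of the summed FPKM in the 8 members and with 5.65% in AY036118 and CT010467.1. WT D stood apart with 10612 genes at or above 1 FPKM and with a summed 11.7 FPKM over the leukocyte markers. WT C and WT D, which were both high in Malat1, could not be singled out this way, since each is the other's nearest library.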

How the results depend on the processing

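No member passed the test under any of the 19 alternative settings, and AY036118 and CT010467.1 kept a positive difference in all 21 of theirs. Rmrp had no value with a filter at 5 FPKM. Without WT C and WT D the differences of Malat1, Neat1, Rn7s1 and Rn7s2 changed sign. These libraries were singled out because the members were high in them, so nothing is read from that change. Among list genes, 2 passed higher with a pseudocount of 0.1, and 0 higher and 0 lower passed with no filter on low values, without WT C and WT D, and without WT C, WT D and POLG H. Leaving out 1 library gave 0 to 2 list genes higher and 0 to 2 lower. Over all genes, 19 rose and 58 fell with no filter, 131 and 120 with median ratio scaling, 128 and 140 with quantile normalization, 12 and 16 without WT C and WT D, and 6 and 11 without WT C, WT D and POLG H, against 71 and 217 in the reported fit. Leaving out 1 library gave 11 to 62 genes higher (12 without WT D) and 31 to 116 lower. Fewer libraries were fitted there, and the cause of the other shifts was not tested. Scaling to genes outside chromosome M gave the lowest median over all genes among the scalings, -0.12. No paired analysis was possible because the library letters are not shared between genotypes. Rmrp and Rpph1 rest on few fragments, and identical 7SL copies and the overlapping annotations on chromosome 17 limit what single entries mean.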
